A study of Mus musculus with 6 samples.

Results

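This comparison sets an allografted mouse heart exposed to ABH4 beside one exposed to BH4, a pair of related pteridines given at the same dose and interval. BH4 is tetrahydrobiopterin and ABH4 is 4-amino tetrahydrobiopterin, in which an amino group replaces the oxo group on the pterin ring of BH4. Both were given at 50 mg/kg every 8 h to recipients of a heart from a donor that differed from them. The members are the probe sets of an Affymetrix array other than its controls, 22626 of 22690, read on 2 of the 6 arrays of the study. These probe sets gave 12393 genes, and the signal of each was compared as log2 of ABH4 minus BH4. The untreated allograft (labelled Allogen), the untreated syngeneic graft (Syngen) and allografts given cyclosporin A (CsA, 15 mg/kg every 24 h) or N-imino ethyl-L-lysine (NIL, 5 mg/kg every 8 h) appear only to place the pteridine arrays among the rest. Mouse strains, sex, age, the day of graft removal and the number of hearts behind each RNA are not known here.

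BH4 is the cofactor that nitric oxide synthases need to turn arginine into nitric oxide, and the enzymes that hydroxylate aromatic amino acids use it too. ABH4 occupies the same site on nitric oxide synthase and blocks the enzyme, so the natural cofactor and its antagonist differ by a single substitution. In a rejecting heart the inducible synthase is made by macrophages and other cells under interferon-gamma, the product of activated T and NK cells. Rejection brings lymphocytes, macrophages and their chemokines into the muscle, and repair brings fibroblasts that lay down collagen.

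Each group had 1 array. There is therefore no estimate of variance, no test and no p-value, and no difference below has a replicate or an interval. A single heart, a single hybridisation and the compound cannot be told apart in any of them. Both arrays had been brought to 1 level before deposit, with a trimmed mean of 200.1 and medians of 80.5 (ABH4) and 78.5 (BH4). The ratio of 3' to 5' signal, which reflects RNA integrity, was 1.08 and 1.12 for Actb and 0.862 and 0.861 for Gapdh. Signals below 34.8, the 30th percentile of all arrays, were set to that floor, and 26.2% (ABH4) and 25.5% (BH4) of genes lay there. Where 1 of the arrays was at the floor the fold is a lower bound and is written as "at least".

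The pteridine arrays were among the more alike of the 15 pairs that 6 arrays form. They differed at least 2-fold in 176 genes, more than the 121 that separated ABH4 from the untreated allograft and fewer than the other 13 pairs. With ABH4 57 of 12393 genes (0.460%) were at least 2-fold higher than with BH4 and 119 (0.960%) were lower. At 3-fold the counts were 10 higher (0.0807%) and 34 lower (0.274%). At 1.5-fold, the size used to count members of gene lists below, they were 404 higher (3.26%) and 509 lower (4.11%). Over all non-control probe sets 117 (0.517%) were at least 2-fold higher and 190 (0.840%) lower. The median difference of all genes was 0, and the SD across genes was 0.36 on the log2 scale.

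**Figure D1:**
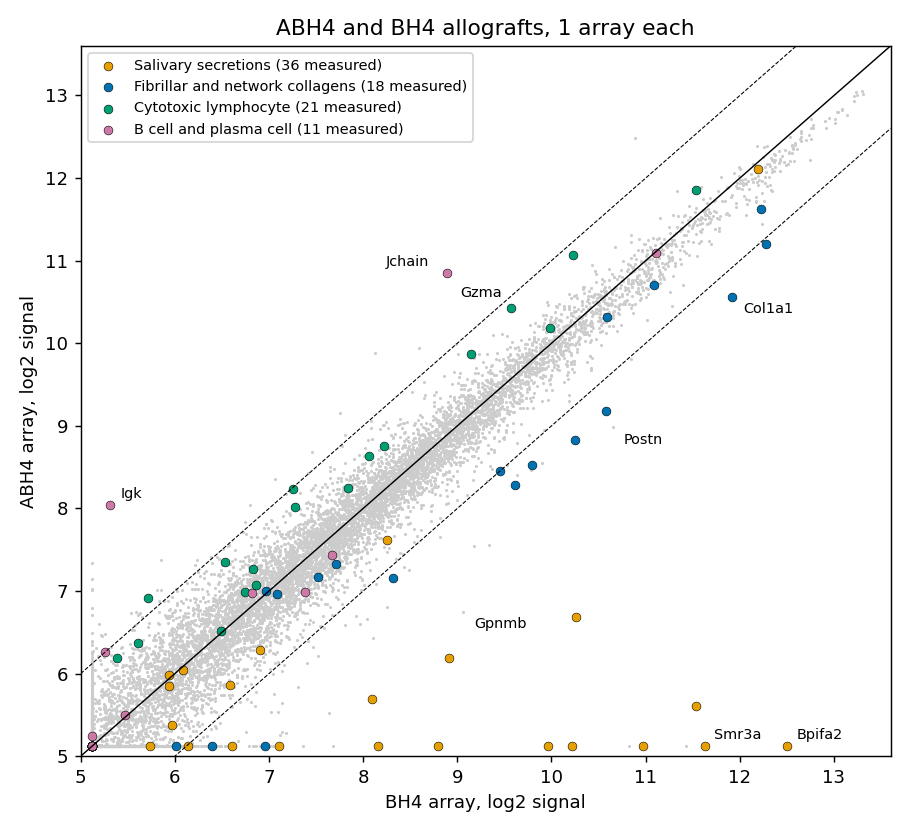
Log2 signal of 12393 genes on the ABH4 array (vertical axis) against the BH4 array (horizontal axis), 1 array each, with members of 4 lists in colour. The solid line marks equal signal and the dashed lines a 2-fold difference. Many salivary secretion genes lie far to the lower right, most collagens below the line, and cytotoxic lymphocyte genes on or above it.

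The BH4 array carried transcripts of salivary secretions that the ABH4 array and the other 4 arrays lacked or held at low signal. Bpifa2, a protein of saliva, had a signal of 5806 on the BH4 array, was below the floor on the ABH4, untreated and CsA arrays, and read 56.2 on NIL and 40.7 on the syngraft. Its difference from ABH4 was at least 167-fold. Smr3a, a submaxillary gland secretion, read 3169 with BH4 and lay below the floor on every other array, a difference of at least 91.1-fold. The list member 2310057J18Rik read 2962 with BH4, 49.0 with ABH4 (60.5-fold lower), 90.9 in the syngraft and less on the other 3 arrays. Salivary amylase, Amy1, read 2011 with BH4 against less than the floor elsewhere (at least 57.8-fold), and Pip (1190, at least 34.2-fold) and Cst10 (1000.5, at least 28.8-fold) had the same pattern. The carbonic anhydrase of saliva, Car6, read 445.3 with BH4 and was at least 12.8-fold lower with ABH4. The BH4 array stood alone for these genes, and no other array overlapped it.

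Of the 36 salivary secretion genes measured, 19 were at least 1.5-fold lower with ABH4, 0 were higher and 13 were below the floor on both arrays, with a median log2 difference of -0.60. The summed signal of the list was 24834 on the BH4 array and lay between 4812 and 6367 on the other 5. Most of the sum outside BH4 came from the lysozyme Lyz1, which read 4402 with ABH4 and 4695 with BH4. Some secretory transcripts were not limited to BH4: Wfdc18 read 1230 with BH4, 252.2 with NIL and 102.6 with ABH4, and Dcpp3 482.6, 149.0 and 73.1. Glandular kallikreins, abundant in the mouse submandibular gland, were divided. Klk1 read 97.4 with BH4 and lay below the floor on the other 5 arrays (at least 2.80-fold), and Klk1b24 read 41.5 with ABH4 and 62.6 with BH4 (1.51-fold lower). Klk1b1, Klk1b5, Klk1b11, Klk1b16, Klk1b21 and Klk1b27 were below the floor on both pteridine arrays. Among the other secretions, lactoperoxidase, Lpo (137.7), and Wfdc12 (284.6) were seen with BH4 and were below the floor with ABH4, at least 3.96-fold and 8.18-fold lower. Egf, another product of that gland, was close to equal (57.7 and 61.3).

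Of 28 gland epithelium genes 9 were at least 1.5-fold lower with ABH4 and 0 higher (median -0.30). The keratins of simple epithelium Krt8 (86.2 with ABH4 and 275.6 with BH4, 3.20-fold) and Krt18 (101.6 and 263.2, 2.59-fold) and the tight junction protein Cldn3 (46.0 and 199.0, 4.33-fold) were among the 9. Krt5, Krt19, Cdh1 and Spdef were below the floor on both arrays. In all, 26 genes were at least 2-fold higher on the BH4 array than on each of the other 5, and 16 of them were salivary or gland genes. The other 10 included Dnase1 (2763 with BH4 and below the floor on all other arrays, at least 79.4-fold) and the chitinase Chia1 (1815, at least 52.2-fold), which salivary glands also make. On the ABH4 array 2 genes stood apart in this way, and on the other 4 arrays 2 (untreated), 3 (NIL), 5 (CsA) and 50 (syngraft).

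Without the 16 salivary and gland genes the count of genes at least 2-fold lower with ABH4 was 103 of 12377 (0.832%), and at 3-fold it was 21 (0.170%). Without all 26 it was 93 of 12367 (0.752%) at 2-fold and 13 (0.105%) at 3-fold. The removed genes were at least 2-fold lower with ABH4 by their definition, so the fall at 2-fold was fixed by the selection. For the same reason the counts of higher genes could not change, at 57 (0.461% of either set) and 10 (0.0808% and 0.0809%). At 1.5-fold 3.98% of the 12377 genes were lower, and of the 12367 genes 3.91% were lower and 3.27% higher. The salivary list itself then held 22 genes, 5 of them at least 1.5-fold lower, with a median of 0. The gland epithelium list then held 26 genes, 7 of them at least 1.5-fold lower, with a median of -0.26. Cldn3, Krt18 and Lcn2 were among those 7, so the counts after removal still hold gland genes. None of the 16 genes is in the matrix, lymphocyte, cytokine or muscle lists, so those counts are the same with and without them. What the tissue behind the salivary transcripts contributed to other signals of the BH4 array was not tested.

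**Figure D2:**
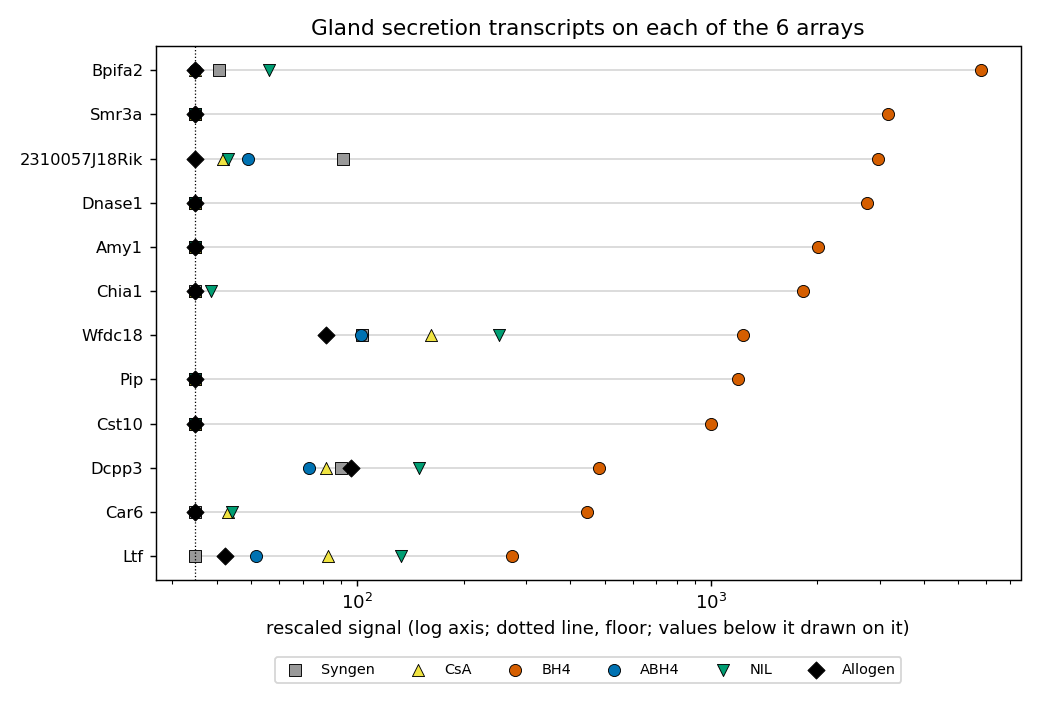
Rescaled signal (log axis) of 12 secretion transcripts on each of the 6 arrays, 1 array per group, with values below the floor of 34.8 drawn on the dotted line. The BH4 array is the highest for all 12, and the NIL array is the next for Wfdc18, Dcpp3 and Ltf.

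With genes at the floor on both arrays counted as 0, the collagens had the median furthest from 0 of the 37 lists. Among genes above the floor on at least 1 array the salivary median (-1.99) was further out. Of 18 collagen genes measured, 12 were at least 1.5-fold lower with ABH4 and 0 were higher, with a median log2 difference of -1.04 beside 0 for all genes. Collagens I and III form the fibrils of scar, collagen V sets fibril width, and collagen VI links fibrils to cells. Col1a1 read 1513 with ABH4 and 3877 with BH4, against 680.3 in the untreated allograft, 625.8 with NIL, 4708 with CsA and 5537 in the syngraft. ABH4 was 2.56-fold below BH4, and it lay above the untreated and NIL arrays while BH4 lay nearer to CsA and the syngraft. In tissue RNA, fewer cells of a type and less RNA per cell cannot be told apart, here or in any list below.

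Col6a3 read 456.0 with ABH4 and 1222 with BH4 (2.68-fold lower), and its partners Col6a1 (311.8 and 783.6) and Col6a2 (369.7 and 885.4) were 2.51-fold and 2.39-fold lower. Col5a2 was 2.64-fold lower and Col5a1 just past 2-fold lower (351.3 and 702.9). Col16a1, a collagen found along fibrils, was below the floor with ABH4 and read 124.4 with BH4, at least 3.58-fold lower. Col3a1, 3164 against 4792, was 1.51-fold lower and just inside the 1.5-fold line. The basement membrane chains Col4a1 (1674 and 2181, 1.30-fold) and Col4a2 (1280 and 1545, 1.21-fold) lay outside it, and Col18a1 was level at 128.6 and 125.5. All 12 collagens were higher with BH4 than in the untreated allograft and lower than in the syngraft, and 9 had an ABH4 signal between the untreated and BH4 arrays. The 12 were picked for a higher signal with BH4 than with ABH4, which favours a BH4 signal above the untreated one. Of the 12, 7 had another probe set and 0 of those pointed the other way.

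Col1a2, the partner chain of Col1a1, read 2363 with ABH4 and 4960 with BH4, 2.10-fold lower, with 1003 in the untreated allograft, 958.2 with NIL, 5643 with CsA and 7507 in the syngraft. Its promoter is printed because it stands for the collagens that were lower together. The sequence is the 250 bases before the first listed start in RefSeq on GRCm38.p6, chr6:4505368-4505617, forward strand, 5′ to 3′. Capitals mark a CCAAT box at -109 to -105 and GGGCGG, the core of a GC box, at -205 to -200 and -188 to -183, counted from the start.
Col1a2: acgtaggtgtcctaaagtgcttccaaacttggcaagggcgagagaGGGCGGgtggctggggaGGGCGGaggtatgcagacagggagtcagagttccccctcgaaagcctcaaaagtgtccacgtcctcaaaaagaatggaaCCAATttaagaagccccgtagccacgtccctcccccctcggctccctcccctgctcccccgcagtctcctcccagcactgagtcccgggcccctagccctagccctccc
Among 9 of the 12 lower collagens with a promoter listed, GGGCGG was found on either strand in 5 (55.6%) and CCAAT in 3 (33.3%). Over the promoters of 27025 genes the shares were 32.9% and 34.5%. TATAAA was found in 1 of the 9 (11.1%, beside 13% of all genes). Such matches describe letters in a window and were not tested for anything else.

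Of 25 matricellular proteins and proteoglycans, which organise collagen and bind cells and growth factors, 12 were at least 1.5-fold lower with ABH4 and 0 higher (median -0.58). Periostin, Postn, secreted by activated fibroblasts, read 505.7 with ABH4 and 1612 with BH4, 3.19-fold lower, and 219.1 in the untreated allograft, 231.1 with NIL, 3019 with CsA and 3142 in the syngraft. ABH4 was therefore above the untreated and NIL arrays and below the other 3. Asporin, Aspn, was below the floor with ABH4 and 120.2 with BH4 (at least 3.46-fold). Thrombospondin 2, Thbs2, was 2.95-fold lower (46.6 and 137.3), the elastic fibre protein Fbln2 2.35-fold and the calcification inhibitor Mgp 2.05-fold. Fibronectin, Fn1, was 1.77-fold lower at 1404 against 2487. Several members were level: Ccn2 (2550 and 2519), Thbs1 (486.5 and 477.1) and Fbln1 (157.6 and 162.7) differed by less than 1.1-fold.

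Of 22 enzymes that crosslink or cut matrix 7 were lower and 0 higher (median -0.36). The gelatinase Mmp2 read 188.8 with ABH4 and 648.7 with BH4, 3.44-fold lower, and the untreated and NIL arrays read 46.6 and 69.3. Macrophage elastase, Mmp12, was below the floor with ABH4 and 114.3 with BH4 (at least 3.28-fold). The collagen-degrading cathepsin Ctsk was 2.35-fold lower (152.9 and 358.6) and lysyl oxidase, Lox, 1.78-fold (364.4 and 650.2). The inhibitor Timp1 was level (2484 and 2264), as were the collagen hydroxylase P4ha1 (460.1 and 408.6) and Mmp9 (108.6 and 97.9).

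Of 19 fibroblast genes that do not encode matrix 9 were lower and 0 higher (median -0.58), and 5 were lower with the floor at the 50th percentile. The secreted Wnt antagonist Sfrp2 read 97.3 with ABH4 and 249.6 with BH4 (2.57-fold), and Igfbp4, which binds insulin-like growth factors, 352.9 and 879.2 (2.49-fold). The fibroblast lineage factor Tcf21 was 2.11-fold lower, Fap 2.03-fold and the receptor Pdgfra 1.95-fold (95.1 and 185.9, with 10.4 in the untreated allograft). Another probe set pointed the other way for Pdgfra and Igf1. Pdgfrb (96.3 and 102.5) and S100a4 (827.5 and 854.9) were level. The fibroblast median lay between -0.59 and -0.09 over the settings tried, and the collagen median between -1.12 and -0.59.

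**Figure D3:**
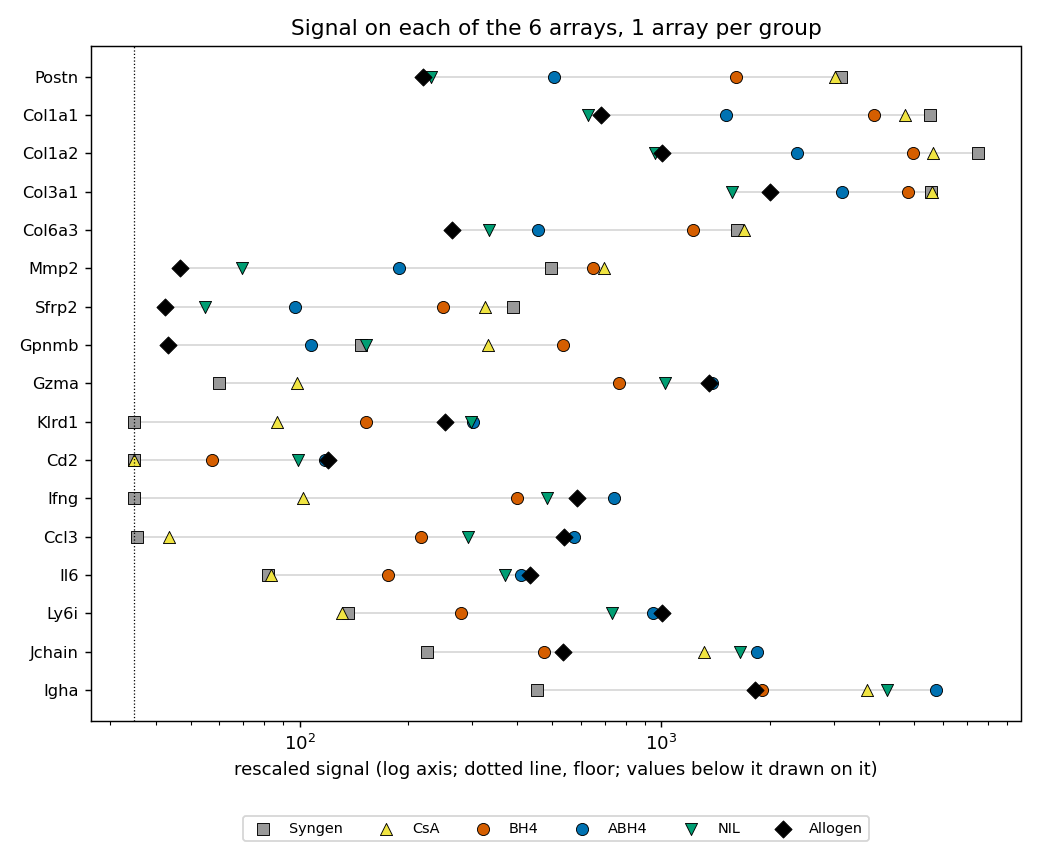
Rescaled signal (log axis) of 17 named genes on each of the 6 arrays, 1 array per group, with values below the floor of 34.8 drawn on the dotted line. For the matrix genes at the top ABH4 lies between the untreated and BH4 arrays. For Gzma, Cd2, Ccl3, Il6 and Ly6i ABH4 lies beside the untreated array and BH4 below both.

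A few phagocyte genes were lower with ABH4 by more than 1.5-fold. Gpnmb, a glycoprotein of lipid-laden and tissue-repair macrophages, read 107.5 with ABH4 and 534.7 with BH4, 4.97-fold lower, with 43.3 in the untreated allograft, 152.8 with NIL, 148.1 in the syngraft and 332.4 with CsA. BH4 was the highest of the 6 arrays. The lipid-sensing receptor Trem2 was 2.03-fold lower (84.2 and 170.8) and the lectin Chil3 1.57-fold (286.9 and 451.1). Of 27 macrophage and monocyte genes these 3 were at least 1.5-fold lower and 1 was higher, the monocyte chemokine receptor Ccr2 (426.7 and 259.5, 1.64-fold), and the median was -0.07 with 16 of 27 below 0. Lysosomal genes were all within 1.5-fold (0 of 15 in either direction, median -0.07). Complement genes were also all within it (0 of 11, median -0.03).

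Lymphocyte transcripts differed in the other direction. Of 18 T cell genes 6 were at least 1.5-fold higher with ABH4 and 0 lower (median 0.53), and 16 lay above 0. With an offset of 32 in place of the floor 3 passed 1.5-fold. The adhesion receptor Cd2 read 117.3 with ABH4 and 57.2 with BH4 (2.05-fold higher), beside 119.5 in the untreated allograft and 98.8 with NIL, and it was below the floor with CsA and in the syngraft. ABH4 was thus level with the untreated array and BH4 lower than both. Slamf6 was 1.88-fold higher (107.1 and 56.9), and the T cell receptor chains Cd247 (147.6 and 85.3) and Cd3d (522.4 and 343.0) were 1.73-fold and 1.52-fold higher. Cd3e (374.8 and 258.6) and Cd3g (563.1 and 390.3) were 1.45-fold and 1.44-fold higher and so outside the count. The kinase Zap70 ran the other way at 251.4 and 361.1, Cd8b1 was level (111.6 and 107.4) and Cd4 was below the floor on both.

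Of 21 cytotoxic lymphocyte genes 9 passed 1.5-fold upward and 0 downward (median 0.54). With the offset 7 passed it upward and 2 downward, and with the floor at the 10th percentile 9 and 2. The NK receptor Ncr1 read 120.3 with ABH4 and 52.4 with BH4 (2.30-fold) and Klrd1 301.9 and 152.2 (1.98-fold). Granzyme A, Gzma, a protease of cytotoxic granules, read 1376 and 761.0 (1.81-fold), with 1353 in the untreated allograft, 1023 with NIL, 98.4 with CsA and 59.8 in the syngraft. Granzyme B, Gzmb, differed less, 3703 against 2973 (1.25-fold), and perforin, Prf1, was 1.49-fold higher (397.6 and 267.4). The death ligand Fasl (91.8 and 89.9) and the lineage factor Tbx21 (134.2 and 115.9) were within 1.2-fold, whereas Eomes was 1.70-fold higher (82.9 and 48.9). All 9 were lower with BH4 than in the untreated allograft. The 9 were picked for a lower signal with BH4 than with ABH4, which favours a BH4 signal below the untreated one. On the CsA array the summed signal of the list was lower than on both, 2140 against 11975 with ABH4 and 8325 with BH4.

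Among secreted signals, 6 of 24 cytokine genes were at least 1.5-fold higher with ABH4 and 0 lower (median 0.04, with 7 below the floor on both arrays). With the offset 5 were higher and 1 lower, and with the floor at the 10th percentile 7 and 2. Il6, an inflammatory cytokine of stroma and macrophages, read 409.6 with ABH4 and 175.8 with BH4 (2.33-fold), and 434.2 in the untreated allograft, 368.5 with NIL, 83.3 with CsA and 81.7 in the syngraft. The alarmin Il33 was 2.03-fold higher (169.9 and 83.6), and here ABH4 was the highest of the 6 arrays. Interferon-gamma, Ifng, read 737.8 and 400.0 (1.84-fold), also the highest on ABH4, with 585.6 in the untreated allograft, 484.1 with NIL, 102.3 with CsA and a value below the floor in the syngraft. Ltb, a lymphotoxin chain, was 1.75-fold higher (351.3 and 200.3), Il1b 1.68-fold (458.7 and 273.8) and Il10 1.51-fold (74.7 and 49.5). Tnf was 1.40-fold higher (172.6 and 123.0), outside the count, and the transforming growth factors Tgfb1 (530.6 and 607.1) and Tgfb2 (251.3 and 258.8) were within 1.2-fold.

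Of 29 chemokines and their receptors 8 were higher and 1 lower (median 0.21), and with the offset 5 were higher and 0 lower. Ccl3, which draws macrophages and T cells, read 572.0 with ABH4 and 216.3 with BH4 (2.64-fold), and 538.3 in the untreated allograft, 292.5 with NIL, 43.5 with CsA and 35.5 in the syngraft. For Ccl3 ABH4 was again beside the untreated array. Of the 8 higher genes ABH4 lay above the untreated array in 7, and BH4 lay below it in 6 and above it in 2. Picking genes by their difference between ABH4 and BH4 favours such an order. The neutrophil attractants Cxcl1 (205.8 and 107.8) and Cxcl5 (135.7 and 82.4) were 1.91-fold and 1.65-fold higher, and Ccl5, a T cell attractant, 1.79-fold (2145 and 1197). Cxcl11, a ligand of Cxcr3, was 2.01-fold higher at 1017 and 506.3. Its other probe set was dim, below the floor with ABH4 and 35.1 with BH4. The receptors Cxcr4 and Cxcr3 were 1.71-fold and 1.53-fold higher. Cxcl9, also a Cxcr3 ligand, was level at 4265 and 3928, as were Ccl2 (1544 and 1414) and Ccl8 (5296 and 4885). The single lower gene was Cxcl14 (96.3 and 146.2, 1.52-fold).

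The promoters of Cxcl1, Il6 and Ltb are printed because they hold a form of the kappaB motif of inflammatory genes, GGG, then any 2 bases, then TTTCC, searched on both strands. Each is the 250 bases before the first listed start in RefSeq on GRCm38.p6, forward strand, 5′ to 3′, with the matches in capitals. Cxcl1 lies at chr5:90890995-90891244 and holds the motif at -71 to -62 and, on the reverse strand, at -89 to -80. Il6 lies at chr5:30012864-30013113 and holds it at -44 to -35. Ltb lies at chr17:35194257-35194506 and holds it on the reverse strand at -87 to -78.
Cxcl1: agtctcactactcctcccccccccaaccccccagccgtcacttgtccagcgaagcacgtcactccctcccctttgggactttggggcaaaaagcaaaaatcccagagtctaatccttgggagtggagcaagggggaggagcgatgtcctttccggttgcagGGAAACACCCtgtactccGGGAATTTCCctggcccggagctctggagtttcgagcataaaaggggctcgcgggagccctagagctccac
Il6: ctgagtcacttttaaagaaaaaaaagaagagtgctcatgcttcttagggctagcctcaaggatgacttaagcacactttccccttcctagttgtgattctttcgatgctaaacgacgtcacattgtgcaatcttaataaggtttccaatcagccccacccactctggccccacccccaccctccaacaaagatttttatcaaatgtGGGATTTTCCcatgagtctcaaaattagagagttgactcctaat
Ltb: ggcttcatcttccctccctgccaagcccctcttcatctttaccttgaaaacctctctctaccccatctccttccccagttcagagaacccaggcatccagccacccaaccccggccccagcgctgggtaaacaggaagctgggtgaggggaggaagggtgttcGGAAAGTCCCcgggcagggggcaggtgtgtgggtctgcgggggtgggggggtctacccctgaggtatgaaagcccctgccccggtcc
These 3 were the matches among 10 of the 14 higher chemokine, receptor and cytokine genes with a promoter listed (30%), beside 378 of 27025 genes (1.4%). None of the 9 collagen promoters held it. In the 10 promoters CCAAT was found in 2 (20%), GGGCGG in 1 (10%) and TATAAA in 4 (40%). No printed match overlapped another. The 14 genes were picked by their difference, so these shares are descriptions. Chemokine, receptor and cytokine genes that were not higher were not counted separately, so the shares do not set the 14 apart from their class.

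Genes that interferon-gamma induces were mostly level although Ifng was not. Of 22 measured, 1 was at least 1.5-fold higher with ABH4, Cxcl11, and 0 were lower, with a median of -0.01 and 11 members on each side of 0. The guanylate-binding protein Gbp2 read 4804 with ABH4 and 5503 with BH4, and the GTPases Iigp1 and Igtp 6804 against 7892 and 5580 against 6416, each within 1.2-fold. Of 17 type I interferon induced genes 1 was higher, Ifi204 (84.6 and 55.9, 1.51-fold), and 0 lower (median 0.03). MHC class I genes were within 1.5-fold in 8 of 8 (median -0.10), with H2-K1 at 6215 and 6931. MHC class II genes, which present antigen to CD4 T cells, all lay above 0 in 8 of 8 (median 0.28). H2-Ea was 1.59-fold higher (164.3 and 103.2) and H2-Ab1 1.32-fold (1395 and 1060), while the invariant chain Cd74 was level (5373 and 5016).

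The genes furthest above BH4 were the immunoglobulin light chain genes Igk, Igkv9-120 and Igkv15-103, and Jchain. Igk, a kappa light chain, read 262.8 with ABH4 and 39.7 with BH4 (6.62-fold higher), and 48.2 in the untreated allograft, 134.1 with CsA, 240.5 with NIL and 5.2 in the syngraft. Jchain, which joins IgA and IgM into polymers, read 1840 and 473.1 (3.89-fold), with 534.4 untreated, 1313 with CsA, 1649 with NIL and 225.4 in the syngraft. Igha, the IgA heavy chain, read 5725 and 1890 (3.03-fold), with 1810 untreated, 3700 with CsA and 4199 with NIL. For all 3 ABH4 was the highest of the 6 arrays, while BH4 was near the untreated allograft. The variable segments Igkv8-30 (2.55-fold), Igkv9-120 (at least 4.65-fold) and Igkv15-103 (at least 4.06-fold) were higher too. For Igkv9-120 the mean over 3 probe sets, 0.88 on the log2 scale, was below 2-fold, against 2.22 for its brightest. Immunoglobulin segments are near-identical copies, so probe sets may share transcripts and these genes are not separate measurements.

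B cell and plasma cell genes other than those were mixed. Of 11 in the list 3 were at least 1.5-fold higher, Igk, Jchain and the coactivator Pou2af1 (77.0 and 38.3, 2.01-fold), and 0 were lower (median 0.02). The heavy chain Ighm of IgM read 172.8 and 203.9, the plasma cell factors Xbp1 2180 and 2212 and Prdm1 125.5 and 113.1, and Sdc1 126.9 and 167.2. The B cell receptor component Cd79a was level at 45.1 and 44.4, and Cd79b and Pax5 were below the floor on both. The averaged probe sets of Igk gave a smaller difference of 0.96 on the log2 scale against 2.73 for its brightest one. BH4, the array with the salivary transcripts, was the lower one for Igk, Jchain and Pou2af1 but not for Ighm or Sdc1. Any link to the salivary transcripts was not tested.

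Genes of heart muscle and its energy supply mostly lay slightly lower with ABH4. Fatty acid oxidation genes were below 0 in 23 of 24, with a median of -0.33, but 2 were at least 1.5-fold lower: the lipid-sensing receptor Ppara (51.7 and 84.0, 1.63-fold) and the thiolase Acaa2 (736.8 and 1123, 1.52-fold). ABH4 was the lowest of the 6 arrays for Ppara, with 107.0 in the untreated allograft. The acyl-CoA dehydrogenase Acadvl read 1008 and 1470 (1.46-fold) and the fatty acid binding protein Fabp3 3722 and 5158 (1.39-fold). Respiratory chain and citrate cycle genes were below 0 in 26 of 27 (median -0.28) with 0 beyond 1.5-fold. The complex III subunit Uqcrfs1 read 2347 and 3306 and the isocitrate dehydrogenase Idh2 1119 and 1525. The summed signal of the respiratory list was 62930 with ABH4 and 61310.5 with NIL. It was 75412 with BH4, 74863 untreated, 72435 with CsA and 80544 in the syngraft. Both lists kept their sign in every setting tried (-0.33 to -0.29 and -0.31 to -0.16).

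Bright genes as a whole leaned the same way, and these lists are bright. With all genes split into 4 equal sets by mean signal, the brightest set had a median difference of -0.06 with 61.0% below 0, and the other 3 sets had medians of 0, 0 and -0.01. Housekeeping genes had a median of -0.12 with 0 of 12 beyond 1.5-fold, and Actb read 7836 and 9482. Centring each gene on genes of like signal left medians of -0.29 for fatty acid oxidation and -0.16 for the respiratory chain. Contractile genes of the cardiomyocyte had a median of -0.23 and 1 of 22 at least 1.5-fold lower, muscle creatine kinase, Ckm (369.9 and 739.4, just under 2-fold). Myh6, the main myosin heavy chain of the adult mouse heart, was level at 3161 and 3236. Of 15 calcium handling and natriuretic peptide genes 2 were lower (median -0.23): the calcium store protein Casq2 (1581 and 2458, 1.56-fold) and the potassium channel Kcnd2 (below the floor and 58.7, at least 1.69-fold). Nppa, the atrial peptide of stressed muscle, read 7143 and 8370, near the top of the signal range.

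**Figure D4:**
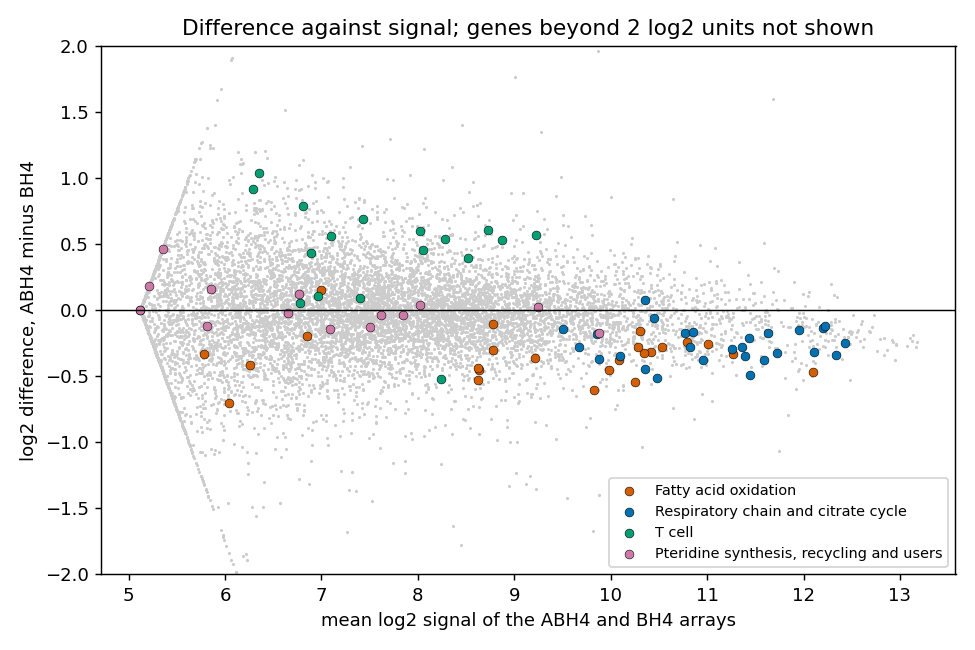
Log2 difference, ABH4 minus BH4, against the mean log2 signal of both arrays, for genes within 2 log2 units, with members of 4 lists in colour. Fatty acid oxidation and respiratory chain genes form a narrow band below 0 at high signal, most T cell genes lie above 0, and the pteridine genes lie close to 0.

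The pathway that makes and uses the compounds themselves was level between the arrays. Of 14 genes of pteridine synthesis, recycling and use, 0 were at least 1.5-fold different in either direction and the median was -0.01. With the floor at the 10th percentile 2 were at least 1.5-fold higher with ABH4 and 0 lower. Gch1, the rate-limiting enzyme of BH4 synthesis, read 262.6 with ABH4 and 255.6 with BH4, and 279.1 untreated, 249.2 with NIL, 185.2 with CsA and 99.2 in the syngraft. The later steps of synthesis, Pts (99.7 and 101.4) and Spr (129.1 and 142.5), were within 1.1-fold or 1.2-fold. The recycling enzyme Qdpr (611.0 and 602.6) was level, and the carbinolamine dehydratase Pcbd2 (193.4 and 198.1) was too. Pcbd1 was at most just above the floor (39.4 and below 34.8).

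The synthases that need the cofactor were also close. Inducible Nos2 read 61.3 with ABH4 and 54.7 with BH4, and 73.2 untreated, 88.0 with NIL and below the floor with CsA and in the syngraft. Endothelial Nos3 read 173.9 and 189.7, and neuronal Nos1 47.9 and below the floor (at least 1.38-fold). The hydroxylase Th read 53.8 and 58.5, and Tph1 was below the floor on both. Xdh, which oxidises purines and some pterins, read 888.4 and 1002 (1.13-fold). In arginine and nitric oxide metabolism 1 of 13 was at least 1.5-fold higher, the arginine transporter Slc7a2 (119.9 and 69.4, 1.73-fold), and 0 were lower (median -0.01). Another probe set of Slc7a2 had the opposite sign but was close to level (43.2 and 44.8). Arg1, which competes with the synthases for arginine, read 1009 and 1045, and haem oxygenase, Hmox1, 1598 and 1624. With 1 array each, such closeness has no interval and does not show that the compounds act alike on these genes.

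Other groups differed little. Cell cycle genes lay above 0 in 20 of 24 (median 0.25) with 2 at least 1.5-fold higher, the replication helicase subunits Mcm4 (300.1 and 174.3, 1.72-fold) and Mcm2 (503.1 and 307.1, 1.64-fold). Oxidative and heat stress genes had 1 of 23 higher, the heat shock protein Hspa1b (680.1 and 436.8, 1.56-fold), and 1 lower, plasma glutathione peroxidase Gpx3 (411.0 and 669.0, 1.63-fold), with a median of -0.10. Neutrophil and acute phase genes had 2 of 15 higher, the receptor Csf3r (1.66-fold) and haptoglobin, Hp (1.56-fold), and 2 lower, Ltf and Lcn2 (374.5 and 956.1, 2.55-fold), both also made by gland epithelium. Dendritic cell genes had Batf3 (186.3 and 94.9, 1.96-fold) and Xcr1 (1.56-fold) higher and Flt3 (below the floor and 110.5, at least 3.18-fold) lower among 9. Smooth muscle and pericyte genes had 2 of 14 lower, Myl9 (104.0 and 243.6, 2.34-fold) and Rgs5 (296.6 and 491.1, 1.66-fold). Endothelial genes had 1 of 21 lower, Tie1, from below the floor.

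Lists for tissues a graft could carry along held few genes beyond 1.5-fold. The medians of the erythroid (4 genes), skeletal muscle (16), adipocyte (10), mesothelium (6), Schwann cell and neuron (7) and mast cell (8) lists were 0. Genes at the floor on both arrays count as 0 there. Among genes above it on at least 1 array the medians were -0.38 (skeletal muscle), -0.21 (adipocyte), -0.20 (erythroid) and -0.15 (mesothelium). They were 0.09 for Schwann cell and neuron and 0.02 for mast cell genes. The fast calcium pump Atp2a1 was 1.77-fold higher (115.6 and 65.2). Sox10 was 2.09-fold lower (41.2 and 86.0), and Mbp, also of glial cells, 1.98-fold higher with another probe set of the opposite sign (67.0 and 72.2). Krt8, the single mesothelium gene beyond 1.5-fold, was among the gland genes above. The mast cell tryptase Tpsab1 (53.0 with BH4) and the red cell anion exchanger Slc4a1 (53.8) were at least 1.53-fold and 1.55-fold lower, from below the floor with ABH4. Skeletal muscle had 8 and adipocyte 6 genes below the floor on both arrays.

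**Figure D5:**
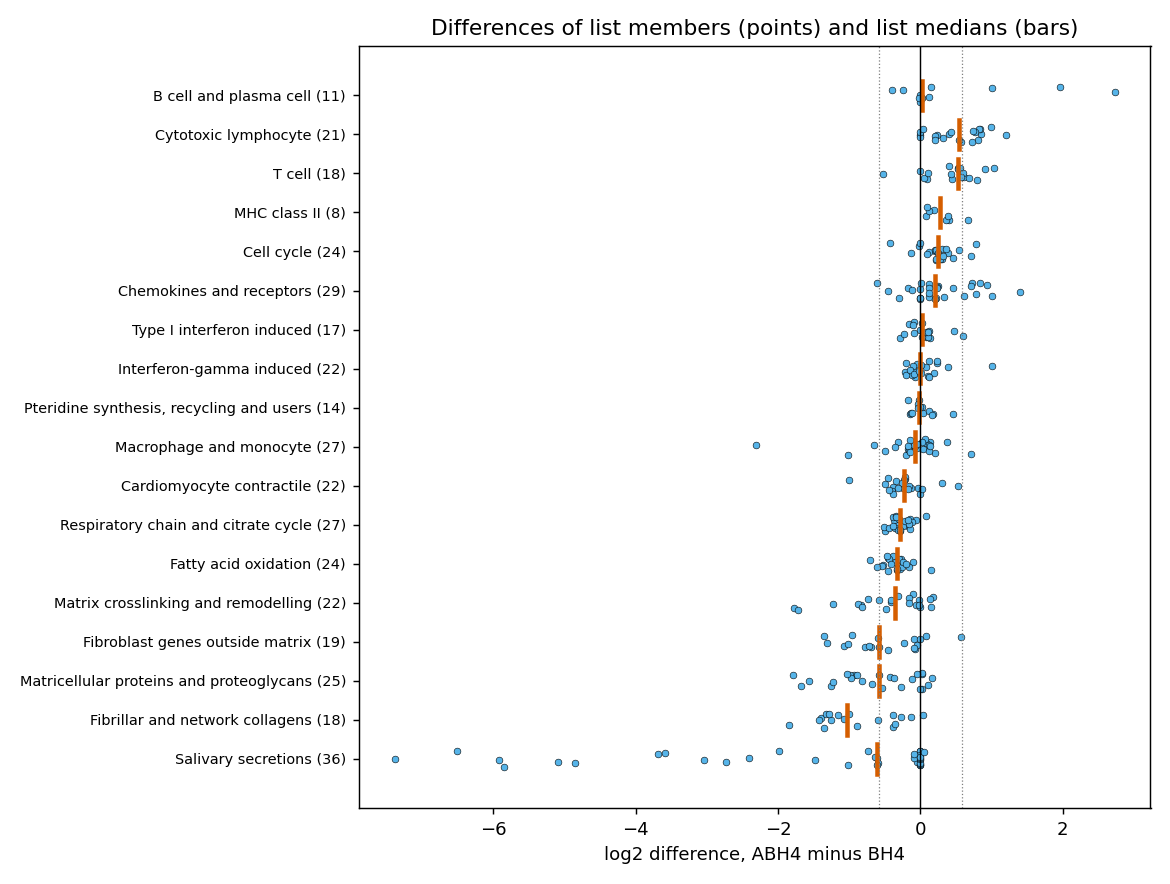
Log2 difference, ABH4 minus BH4, of the measured members of 18 lists (points, with the number measured in brackets) and the median of each list (bar). Dotted lines mark 1.5-fold, and the medians run from -1.04 for collagens to 0.54 for cytotoxic lymphocyte genes.

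The place of each array among the 6 was counted with ties left out. Of the 57 genes at least 2-fold higher with ABH4, ABH4 was the highest of the 6 arrays in 32 and BH4 the lowest in 15. Of the 119 lower genes BH4 was the highest in 57 and ABH4 the lowest in 30, and without the 26 genes peculiar to BH4 the counts were 31 and 29 of 93. ABH4 was tied at the floor with another array in 38 more of the 119, and BH4 in 14 more of the 57. For the 119 lower genes ABH4 was nearer than BH4 to the untreated allograft in 94, and without the 26 peculiar genes in 68 of 93. For the 57 higher genes ABH4 was the nearer in 30. Over all genes, 121 were at least 2-fold apart between ABH4 and the untreated allograft, and 243 between BH4 and the untreated allograft. The 119 and 57 genes were picked by the difference between ABH4 and BH4. That raises the share with either array at an extreme or away from the untreated one, so these counts are descriptions. Lower bounds made up 19 of the 57 and 56 of the 119. Of the genes with another probe set, 3 of 21 higher and 6 of 40 lower ones had a probe set that pointed the other way.

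Most genes at least 2-fold different belonged to no list, 48 of the 57 higher and 72 of the 119 lower. Ly6i, a lymphocyte antigen 6 family member, read 947.4 with ABH4 and 278.8 with BH4 (3.40-fold higher), with 1006 untreated, 728.5 with NIL, 131.3 with CsA and 135.8 in the syngraft. The purinergic receptor P2ry14 was 2.36-fold higher (262.6 and 111.1), the RNA-binding protein Lsm7 2.46-fold (328.2 and 133.5), the kinase Stk10 2.65-fold (96.9 and 36.6) and the homeobox gene Hoxa9 2.86-fold (166.2 and 58.0). Il2ra, the high-affinity receptor chain for interleukin 2, was 2.30-fold higher (129.3 and 56.2), and Pdcd1lg2, a ligand of the checkpoint receptor PD-1, 2.03-fold (345.6 and 170.4). Izumo1r, Mast1, Map11 and Med17 were dim, with signals of at most 130.7 on the higher array. Among the lower genes Ptn, a growth factor of connective tissue, read 39.1 and 140.9 (3.60-fold), with 370.3 on CsA and below the floor untreated. The collagen receptor Mrc2 (57.3 and 158.1, 2.76-fold), the microfibril protein Mfap2 (below the floor and 164.2, at least 4.72-fold), Ltbp2 (111.9 and 304.0, 2.72-fold) and Islr (70.1 and 169.6, 2.42-fold) are connective tissue genes outside the lists, picked here from the genes already at least 2-fold lower. Cbr2 (39.0 and 144.8, 3.71-fold) and Pglyrp1 (38.2 and 138.5, 3.63-fold) were also lower, and Pglyrp1 is among the genes peculiar to the BH4 array.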

How the data were processed

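Signal intensities deposited by the authors, linear and with 1 value per probe set, were used for 6 arrays. They had a common trimmed mean as deposited. Software, summarisation and background correction are not known here. The platform annotation gave 1 gene symbol to 20380 probe sets, several to 691 and none to 1555, and gene comparisons used those with 1. Each array was rescaled to the mean of the 6 medians (by -0.09 to 0.10 on the log2 scale, 0.05 for ABH4 and 0.09 for BH4), raised to a floor of 34.8 and put on the log2 scale. A gene took its brightest probe set over 6 arrays. The number of arrays limits the precision, and with 1 array per group there is no test.

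The members and 37 gene lists (643 of 755 entries measured, some genes in several lists) were chosen with earlier results of these data known. Genes were named by a rule: the 12 largest differences each way with both arrays above the floor, 1 of them above its median, and no opposing probe set, the 4 largest lower bounds, up to 2 members each way per list at 1.5-fold or more, any salivary or pteridine member, and Nos2, Gch1, Ifng, Gzmb, Cxcl9, Nppa, Myh6, Postn and Col1a1. Every other named gene was chosen after its values were seen. Promoters came from RefSeq (GRCm38.p6). Python 3.11.15, numpy 2.4.6, pandas 2.3.3 and scipy 1.17.1 were used, and the steps were tested on simulated data. Alternatives were no rescaling, quantile normalization, floors at the 10th and 50th percentile, an offset of 32, features above the floor on an array, the mean over probe sets, removal of genes peculiar to BH4 and, added after seeing the data, centring on genes of like signal.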

Additional observations from a re-analysis of the deposited data

How the results depend on the processing

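No paired analysis was possible because each group had 1 array. The floor moved the gene counts most. With it at the 10th percentile, 491 genes passed 2-fold upward and 583 downward, as did 995 and 1142 probe sets. With it at the 50th percentile the numbers were 14 and 46 genes and 26 and 70 probe sets. The erythroid median was -0.82 with the floor at the 10th percentile. The salivary median was 0 with the floor at the 50th percentile, 0 without the genes peculiar to BH4 (salivary alone or all), and -1.99 among genes above the floor on at least 1 array. The mean over probe sets left 37 genes at least 2-fold higher. The counts at 2-fold stayed within 1.5 times under these settings: 71 upward and 102 downward without rescaling, 50 and 107 with quantile normalization, 43 and 95 with an offset of 32, and 59 and 116 after centring on genes of like signal, added after seeing the data. Genes at least 3-fold higher numbered 5 with the offset and 6 with the mean over probe sets. Counts of list members at 1.5-fold moved by over 1.5 times in 11 of the 37 lists upward and 9 downward with the floor at the 10th percentile, 5 and 9 at the 50th, 6 and 8 with the offset, 5 and 3 with the mean over probe sets, 2 and 3 with quantile normalization, and 2 and 4 both without rescaling and after centring. Dim named genes lost their difference with the floor at the 50th percentile, such as Stk10 (0.22), Izumo1r (0.09), Mast1 (0.07), Ppara (-0.01) and Sox10 (-0.05 on the log2 scale). With the mean over probe sets Hoxa9 (0.76) and Cldn3 (-0.89) were under 2-fold. Signal over background limits the dim genes, since 26.2% of genes on the ABH4 array lay at the floor.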

Other observations

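Some probe sets entered no gene comparison. Of 691 listed for several genes 3 were at least 2-fold higher with ABH4 and 5 lower (1.16%), and of 1555 with no gene listed here 4 were higher and 7 lower (0.707%), beside 1.41% of the 20380 with 1 symbol. Among genes outside the lists, chosen after their values were seen, Tlr1, a receptor for bacterial lipoproteins, read 103.1 with ABH4 and 50.2 with BH4, with 42.8 in the untreated allograft and below the floor with CsA and in the syngraft. Stat4, which transmits interleukin 12 signals in T and NK cells, read 73.8 with ABH4, was below the floor with BH4, CsA and in the syngraft, and read 51.6 untreated and 50.3 with NIL. Cygb, a globin of fibroblasts and stellate cells, read 74.0 with ABH4 and 183.9 with BH4, with 56.8 untreated, 48.7 with NIL, 483.2 with CsA and 598.9 in the syngraft. Aebp1, a matrix-associated protein of connective tissue, read 79.7 and 176.4, with 52.1 untreated and 320.8 in the syngraft. Idh1, the cytosolic isocitrate dehydrogenase, read 201.7 and 451.5 and was the highest on BH4, although another probe set was close to level (116.9 and 109.5).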
